A study of Mus musculus with 4 samples.

Results

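Spermatogonia in the testis depend on growth factors and a chemokine made by the cells around them. Here 9 genes were followed in dissociated mouse testis cells, the ligands Gdnf, Kitl, Cxcl12 and Csf1 and the receptors Gfra1, Ret, Kit, Cxcr4 and Csf1r. They were taken by symbol from the 32285 genes of the count matrix, and all 9 were found. The series holds 4 droplet libraries of testis, 1 each from control and Znhit1 knockout mice at postnatal days 16 and 35, made to examine loss of ZNHIT1 in germ cells. Counts are described for the day 35 knockout library alone, so neither genotypes nor ages are compared, and no p-value is given. No source used here gives the strain, the design of the knockout, a Cre driver or the number of animals per library. Somatic cells of this library therefore come from a testis of the knockout group, and whether Znhit1 was deleted in them is not known here.

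GDNF is known to act on the earliest spermatogonia through a complex of the membrane-anchored co-receptor GFRA1 and the receptor tyrosine kinase RET, and it favours self-renewal. KIT ligand, the product of Kitl, binds the tyrosine kinase KIT, which spermatogonia take up as they start to differentiate and which Leydig cells also carry. CXCL12 is a chemokine that attracts and holds cells bearing CXCR4. CSF1 binds CSF1R, which maintains macrophages, including those of the testis.

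All 9 genes are annotated as protein coding in GENCODE M21, on the mm10 build that the submitters' notes name. Gdnf spans 7810846 to 7837575 of chromosome 15 (plus strand), and its co-receptor gene Gfra1 spans 58235604 to 58455909 of chromosome 19 (minus strand). On chromosome 6, Ret spans 118151745 to 118197718 (minus strand) and Cxcl12 117168535 to 117181367 (plus strand). Kitl spans 100015630 to 100100416 of chromosome 10 and Kit 75574916 to 75656722 of chromosome 5, both on the plus strand. Csf1 spans 107741048 to 107760469 of chromosome 3 and Cxcr4 128588199 to 128592293 of chromosome 1, both on the minus strand. Gfra1 and Csf1r each overlap a gene of the opposite strand, Gm16277 and Hmgxb3, and no source used here says whether the counting was by strand.

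RefSeq promoter sequences of GRCm38.p6 were found for 7 of the 9 genes. The 120 bases before the start of transcription are shown for 4 of them whose window met no annotated exon, to set the core promoters of 2 genes with few molecules, Gdnf and Cxcr4, beside those of Cxcl12 and Csf1, whose levels over cell classes ran alongside each other. Capitals mark TATAAA (the TATA box) and GGGCGG (the GC box), read on both strands, so that TTTATA and CCGCCC are the same motifs on the other strand.
Gdnf, chr15:7809928-7810047, plus strand: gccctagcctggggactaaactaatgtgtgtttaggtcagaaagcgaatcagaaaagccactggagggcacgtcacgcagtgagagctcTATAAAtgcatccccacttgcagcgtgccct
Cxcr4, chr1:128592300-128592419, minus strand: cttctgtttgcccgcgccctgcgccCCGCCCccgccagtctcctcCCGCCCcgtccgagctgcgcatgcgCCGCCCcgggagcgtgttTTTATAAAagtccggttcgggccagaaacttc
Cxcl12, chr6:117168415-117168534, plus strand: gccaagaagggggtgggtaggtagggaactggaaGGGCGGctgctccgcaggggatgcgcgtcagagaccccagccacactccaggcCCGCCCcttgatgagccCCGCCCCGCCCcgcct
Csf1, chr3:107760470-107760589, minus strand: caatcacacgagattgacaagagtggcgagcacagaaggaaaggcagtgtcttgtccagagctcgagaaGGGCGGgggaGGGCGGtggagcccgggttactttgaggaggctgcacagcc
The Gdnf window shown held 1 TATAAA and 0 GGGCGG, while the window of a second RefSeq start of Gdnf, at chr15:7813607-7813726 and also outside annotated exons, held 0 of either. The Cxcr4 window held both motifs, with 2 overlapping matches of TATAAA on opposite strands. The Cxcl12 and Csf1 windows held GGGCGG 4 times and 2 times and no TATAAA. The Kitl window, which met an annotated exon and is not shown, held 1 TATAAA and 2 GGGCGG. The Gfra1 window, left out for the same reason, held 0 of either, and both Kit windows held 1 GGGCGG and no TATAAA. Among 27025 RefSeq promoters of the same length, 6.76% held TATAAA and 26.9% held GGGCGG. A match describes these letters only and is not a shown binding site.

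The library held 15306 barcodes with 500 to 87246 UMIs each (unique molecular identifiers, tags that let every captured RNA be counted once). After filtering, 7886 cells with a median of 4616 UMIs remained. They formed 23 clusters, which were named from marker genes after clustering without the 9 genes. Germ-cell-like classes held 4395 cells, somatic-like classes 2704, and 787 cells (9.98%) in 4 clusters stayed unnamed. Levels are given in CPM, the UMIs of a gene per 1e6 UMIs of the class, for the 11 classes of at least 50 cells, which ran from 68 pericyte-like to 2023 early-prophase-spermatocyte-like cells. The markers of a class were highest in that class for 10 of 10 Sertoli, 9 of 9 Leydig, 8 of 8 macrophage, 8 of 8 endothelial, 8 of 8 pachytene and 6 of 6 pericyte genes. The match was weaker for peritubular myoid (4 of 7) and differentiating spermatogonium genes (3 of 8). Myh11, Des and Tagln, contractile genes among the myoid markers, were higher in pericyte-like cells. The match was 8 of 10 for undifferentiated spermatogonium, 6 of 8 for early prophase and 6 of 7 for interstitial stroma genes. The same lists had named the clusters, so these counts are no independent test of the names. The pachytene-like cluster of 498 cells scored 1.16, against 1.14 for early prophase, and that of 257 cells 2.51, against 2.40 for round spermatid. Znhit1 itself was at 2.48 CPM (80 UMIs) in germ-cell-like and 15.6 CPM (239 UMIs) in somatic-like cells, and without a control matrix, and with a 3' tag that can lie outside a deleted part, this does not check the genotype. Intervals are 95% and cover counting error only, not the spread between animals.

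Gdnf had few UMIs, and its highest levels were in the cells of the tubule wall and in Sertoli-like cells. Peritubular myoid-like cells, the contractile cells around the tubule, had 11.4 CPM (7.37 to 16.8) from 25 UMIs in 25 of 607 cells. Sertoli-like cells, the supporting cells inside the tubule, had 9.21 CPM (5.46 to 14.6) from 18 UMIs in 17 of 285 cells. The ratio of the first to the second was 1.24 (0.648 to 2.41), so these 2 sources could not be ranked at this depth. In the other classes the level was 3.23 CPM in endothelial-like and 1.24 CPM in interstitial-stroma-like cells, each from 1 UMI, and 0.838 CPM in Leydig-like cells. Germ-cell-like classes lay between 0.305 and 0.893 CPM. No Gdnf UMI was seen in macrophage-like or pericyte-like cells, where 3 counts would be 2.13 and 12.9 CPM, so the pericyte-like class was too small to show a level like that of the myoid-like cells. A Gdnf UMI was found in 4.12% of myoid-like cells at a median of 3605 UMIs per cell, against 0.755% of Leydig-like cells at a median of 8913.

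The Gdnf of Sertoli-like cells was spread over both of their clusters, with 9.91 CPM in the cluster of 206 cells and 8.08 CPM in that of 79 cells. Its level there was 80.8% of that in myoid-like cells, whereas the myoid markers in Sertoli-like cells stood at a median of 0.859% of their own level (0 to 4.57% over 7 markers). With up to 20% mitochondrial UMIs allowed per cell, the Sertoli-like class grew to 893 cells and held 51 Gdnf UMIs at 7.04 CPM.

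**Figure D1:**
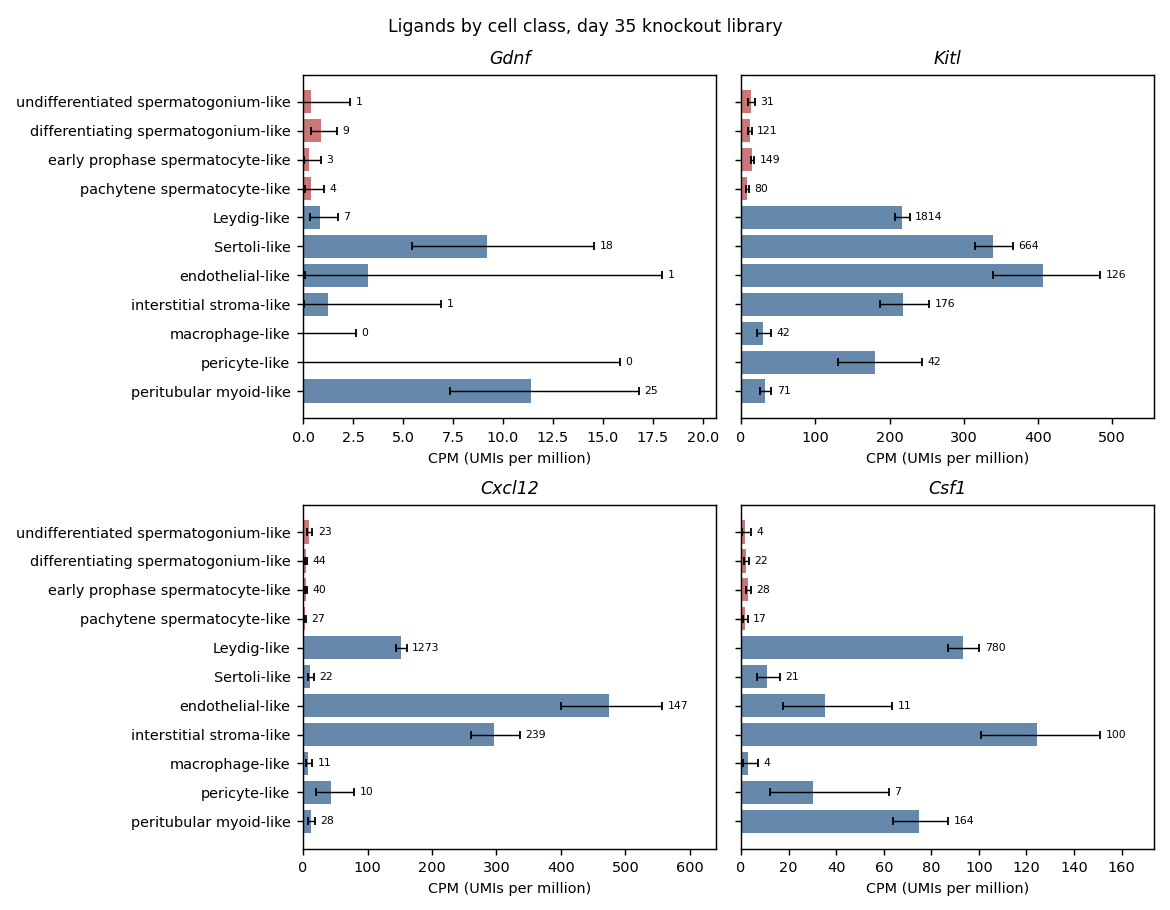
Level of each ligand in CPM (horizontal axis, linear, from 0) in the 11 cell classes, with exact Poisson 95% intervals and the number of UMIs beside each bar; red bars are germ-cell-like and blue bars somatic-like classes. Gdnf was highest in peritubular myoid-like and Sertoli-like cells (11.4 and 9.21 CPM), Kitl and Cxcl12 in endothelial-like cells (407 and 474 CPM) and Csf1 in interstitial-stroma-like cells (124 CPM).

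Kitl was high in 5 of the 7 somatic-like classes and low in germ-cell-like ones. Endothelial-like cells had 407 CPM (339 to 484) and Sertoli-like cells 340 CPM (314 to 367), with a ratio of 1.20 (0.981 to 1.45) between them. Interstitial-stroma-like cells had 219 CPM, Leydig-like cells, the steroid-producing cells between tubules, 217 CPM and pericyte-like cells 181 CPM. These 3 classes did not differ beyond counting error, with ratios of 1.01 (0.858 to 1.18) for stroma over Leydig and 1.20 (0.886 to 1.67) for Leydig over pericyte. Myoid-like cells came next with 32.4 CPM, and pericyte-like cells were 5.58-fold above them (3.72 to 8.29). Macrophage-like cells had 29.9 CPM, and the germ-cell-like classes had 15.1 CPM in early prophase, 13.1 CPM in undifferentiated and 12.0 CPM in differentiating spermatogonium-like cells and 8.08 CPM in pachytene-like cells.

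By number of molecules, the order differed. Leydig-like cells, which are many and deeply sequenced, held 1814 Kitl UMIs, or 52.9% of those in all cells used, and Sertoli-like cells held 664. This order rested on the mitochondrial limit, since with up to 20% mitochondrial UMIs allowed Sertoli-like cells held 2451 and Leydig-like cells 2278. A Kitl UMI was seen in 78.9% of Leydig-like cells (median 8913 UMIs), against 8.34% of pachytene-like cells (median 9740). When each cell was thinned to 1000 UMIs, the expected shares were 29.1% of endothelial-like, 28.3% of Sertoli-like, 19.5% of stroma-like and 19.1% of Leydig-like cells. Between the Sertoli-like clusters Kitl differed little, at 381 CPM in that of 79 cells and 315 CPM in that of 206 cells, a ratio of 1.21 (1.03 to 1.42).

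Cxcl12 had its highest levels between the tubules and was low in Sertoli-like cells. Endothelial-like cells had 474 CPM (401 to 558), interstitial-stroma-like cells 297 CPM (260 to 337) and Leydig-like cells 152 CPM (144 to 161). Each of these steps was larger than counting error, with ratios of 1.60 (1.29 to 1.97) and 1.95 (1.69 to 2.24). Pericyte-like cells had 43.0 CPM from 10 UMIs. Myoid-like cells had 12.8 CPM and Sertoli-like cells 11.3 CPM, which could not be told apart (ratio 1.13, 0.625 to 2.08). Undifferentiated spermatogonium-like cells had 9.69 CPM and macrophage-like cells 7.83 CPM, and the other germ-cell-like classes had 2.73 to 4.37 CPM. Endothelial-like cells thus stood 42.1-fold above Sertoli-like cells for Cxcl12 (26.8 to 69.3), while for Kitl the same ratio was 1.20. Leydig-like cells held 1273 of the 1896 Cxcl12 UMIs (67.1%), and a UMI was seen in 61.1% of endothelial-like cells (median 3160 UMIs) against 2.45% of macrophage-like cells (median 3050).

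Csf1 lay in stroma-like, Leydig-like and myoid-like cells. Interstitial-stroma-like cells had 124 CPM (101 to 151) from 100 UMIs, Leydig-like cells 93.4 CPM (86.9 to 100.2) from 780 UMIs and myoid-like cells 74.7 CPM (63.7 to 87.1) from 164 UMIs. The order of the first pair was not stable, since the ratio of stroma to Leydig was 1.33 (1.07 to 1.64) here, 0.965 with doublets kept, 0.954 at a finer clustering and 0.952 when the 9 genes and their pathway genes took part in the clustering. Leydig-like over myoid-like cells gave 1.25 (1.05 to 1.49). Endothelial-like cells had 35.5 CPM and pericyte-like cells 30.1 CPM, from 11 and 7 UMIs. Sertoli-like cells had 10.7 CPM, macrophage-like cells 2.85 CPM from 4 UMIs, and the germ-cell-like classes 1.69 to 2.84 CPM. A Csf1 UMI was seen in 47.8% of Leydig-like cells against 2.12% of pachytene-like cells, whose median depths were 8913 and 9740 UMIs.

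The GDNF receptor genes were concentrated in 1 cluster, the undifferentiated spermatogonium-like class of 182 cells. Gfra1 had 137 CPM there (123 to 153), from 326 UMIs in 104 cells, which is 85.3% of all Gfra1 UMIs in the cells used. In the next germ-cell-like class, differentiating spermatogonium-like cells, it had 1.79 CPM, a 76.9-fold difference (47.9 to 131). Pachytene-like cells had 1.01 CPM and early-prophase-like cells 0.203 CPM. Among somatic-like classes Sertoli-like cells had 3.07 CPM, all 6 UMIs from a single cell, stroma-like cells 1.24 CPM, Leydig-like cells 0.599 CPM and myoid-like cells 0.456 CPM. Endothelial-like, macrophage-like and pericyte-like cells had 0 UMIs, where 3 counts would be 9.68, 2.13 and 12.9 CPM. Outside these classes, an unnamed cluster of 9 cells had 210 CPM of Gfra1 and is described further on. A Gfra1 UMI was seen in 57.1% of undifferentiated spermatogonium-like cells (median 11471 UMIs) and in 0.216% of Leydig-like cells (median 8913).

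Ret followed Gfra1 in germ cells but was also found in a subset of Sertoli-like cells. Undifferentiated spermatogonium-like cells had 55.2 CPM (46.2 to 65.5) from 131 UMIs in 76 cells. Differentiating spermatogonium-like cells had 1.39 CPM, 39.7-fold less (22.9 to 74.7), and the later germ-cell-like classes had 0.305 and 0.606 CPM. Sertoli-like cells had 12.3 CPM (7.87 to 18.3), 4.49-fold below the spermatogonium-like level (2.89 to 7.27). This ratio was 2.80 with a looser minimum of 200 genes and 500 UMIs and 9.84 with up to 20% mitochondrial UMIs. Myoid-like cells had 0.912 CPM, macrophage-like cells 0.712 CPM and Leydig-like cells 0.359 CPM, from 1 to 3 UMIs each, and endothelial-like, stroma-like and pericyte-like cells had 0 UMIs. A Ret UMI was seen in 41.8% of undifferentiated spermatogonium-like and 0.324% of Leydig-like cells.

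The Ret of Sertoli-like cells lay almost wholly in the smaller cluster. It held 22 UMIs in 15 of 79 cells, or 29.6 CPM (18.6 to 44.8), whereas the cluster of 206 cells held 2 UMIs, or 1.65 CPM, a ratio of 17.9 (4.41 to 157). The smaller cluster was deeper, at a median of 8693 against 2502.5 UMIs, and after thinning to 1000 UMIs the expected shares of cells with Ret were 2.49% and 0.464%. It had more Sox9 (610 against 267 CPM), Cldn11 (708 against 307 CPM) and Wnt4 (324 against 19.0 CPM), and less Fshr, the receptor for follicle-stimulating hormone (21.5 against 194 CPM), and Cst9 (203 against 1598 CPM). Of the 10 Sertoli markers, 6 stood at least 2-fold up in it and all 10 in the larger cluster, so its name is less firmly based. In Sertoli-like cells as a whole Ret stood at 22.2% of its undifferentiated spermatogonium-like level. The 9 markers of the undifferentiated class stood there at a median of 6.52%, with a range of 0 to 124%. Such a range is too wide to serve as a background, and the source of these Ret UMIs was not tested. Gfra1 had 0 UMIs in the smaller cluster, where 3 counts would be 4.04 CPM. When up to 20% mitochondrial UMIs were allowed, the larger Sertoli-like class of 893 cells had 3.87 CPM of Ret from 28 UMIs.

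**Figure D2:**
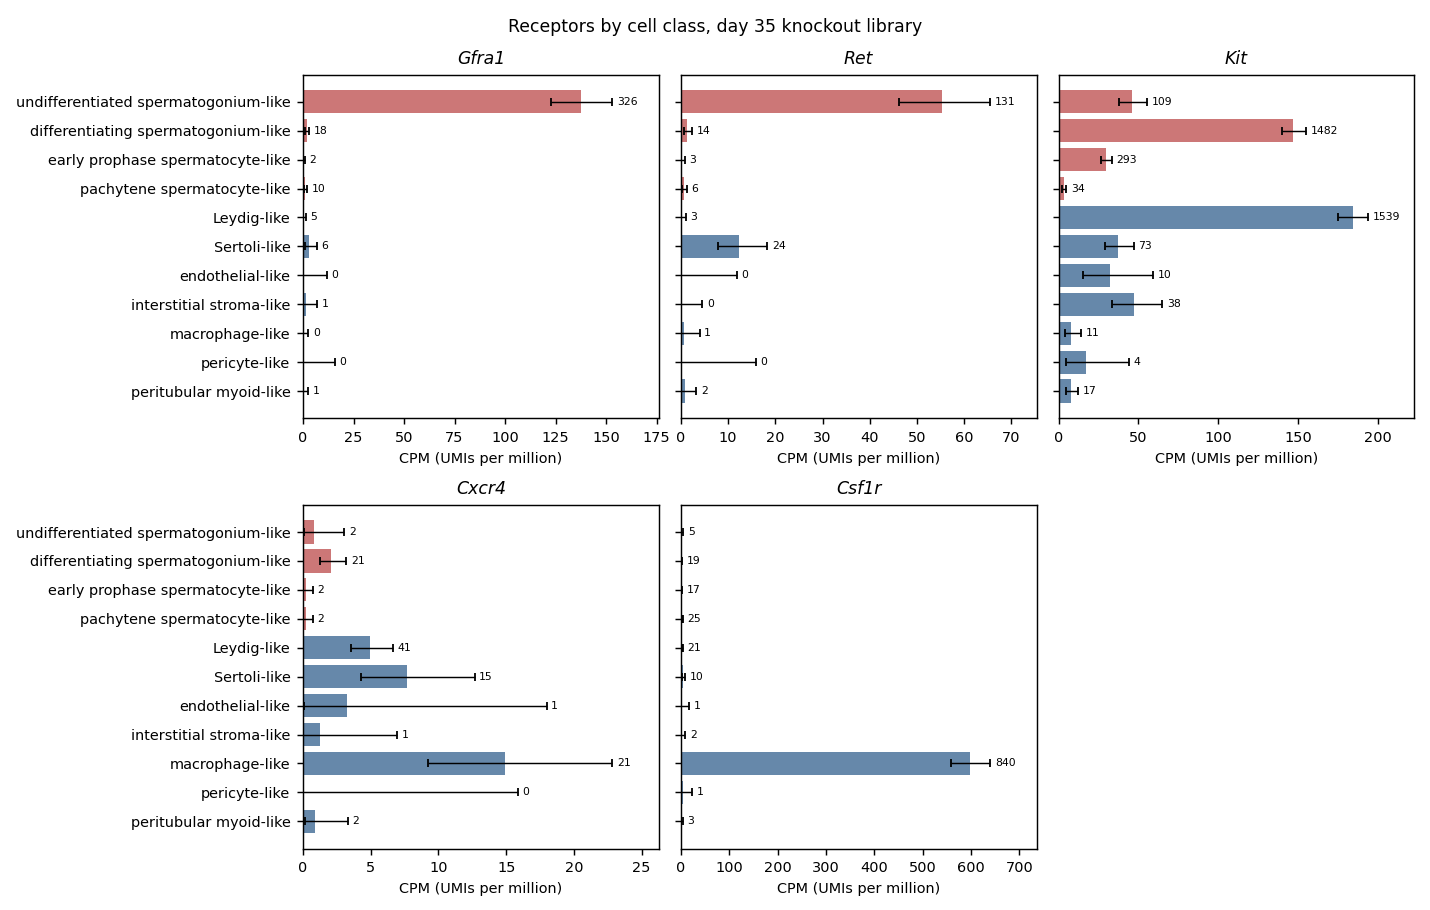
Level of each receptor in CPM (horizontal axis, linear, from 0) in the 11 cell classes, with exact Poisson 95% intervals and UMIs beside each bar; red bars are germ-cell-like and blue bars somatic-like classes. Gfra1 and Ret peak in undifferentiated spermatogonium-like cells (137 and 55.2 CPM), Kit in Leydig-like and differentiating spermatogonium-like cells (184 and 147 CPM) and Csf1r in macrophage-like cells (598 CPM).

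Kit was high in cells of both kinds, germ and somatic. Leydig-like cells had 184 CPM (175 to 194) from 1539 UMIs and differentiating spermatogonium-like cells 147 CPM (140 to 155) from 1482 UMIs, a ratio of 1.25 (1.17 to 1.35). Interstitial-stroma-like cells had 47.2 CPM, undifferentiated spermatogonium-like cells 45.9 CPM, Sertoli-like cells 37.4 CPM, endothelial-like cells 32.3 CPM and early-prophase-like cells 29.8 CPM. Pericyte-like cells had 17.2 CPM, macrophage-like cells 7.83 CPM, myoid-like cells 7.75 CPM and pachytene-like cells 3.43 CPM. A Kit UMI was seen in 71.4% of Leydig-like cells and 50.9% of differentiating spermatogonium-like cells, against 4.24% of pachytene-like cells, which had the largest median depth of the 3 (9740 UMIs).

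UMIs of the Leydig markers were found in the other classes at a low level, which is set here beside their Kit; where they came from was not tested. In differentiating spermatogonium-like cells Kit stood at 79.8% of its Leydig-like level, while the 9 Leydig markers stood at a median of 1.89% (1.16 to 2.69%). In undifferentiated spermatogonium-like cells the same values were 24.9% and 1.02%, and in early-prophase-like cells 16.2% and 2.58%. In pachytene-like cells they were 1.86% and 1.13%, and in myoid-like cells 4.21% and 2.20%, just above the markers' highest values of 1.70% and 3.47%. Sertoli-like cells had 20.3% against a median of 7.41%, within the markers' range of 6.89 to 24.8%, and stroma-like cells 25.6% against 12.0% with a range of 3.40 to 15.7%. The part of such RNA in the Kit of stroma-like and Sertoli-like cells was not tested.

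Across the germ-cell-like clusters, placed in order by their stage markers, Gfra1 and Ret were high only in the undifferentiated cluster and Kit was highest in the cluster after it. Kit was at 45.9 CPM in the undifferentiated cluster, 201 CPM in the differentiating cluster of 426 cells, 118 CPM in that of 447 cells and 82.4 CPM in that of 562 cells. The fall over these 3 was larger than counting error, with ratios of 1.70 (1.51 to 1.92) and 1.44 (1.20 to 1.72). It went on to 70.4 CPM in the early-prophase-like cluster of 722 cells, then 9.51 and 5.78 CPM in the others of that class, and it ended at 5.01 and 2.07 CPM in the 2 clusters of pachytene-like cells. The cluster of 722 cells had the most Stra8, the retinoic-acid-responsive gene of meiotic entry (750 CPM), and Prdm9, which sets recombination sites (197 CPM). Crabp1, a marker of differentiating spermatogonia, went from 345 to 224, 119 and 26.0 CPM over the clusters of 426, 447, 562 and 722 cells. Other markers of the same list did not fall steadily over these clusters. Esx1 was at 101, 242, 283 and 133 CPM, Dmrtb1 at 37.9, 74.7, 33.1 and 9.34 CPM and Stra8 at 357, 94.7, 221 and 750 CPM. In the first differentiating cluster Kit stood at 1.09 times its Leydig-like level (1.01 to 1.19).

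Gfra1 fell from 137 CPM to 3.36 CPM (15 UMIs in 11 of 426 cells) and then to 0.598 and 0.441 CPM from 2 and 1 UMIs. The cluster of 426 cells was 5.62-fold above that of 447 cells (1.31 to 50.7). Ret had 2.02 CPM (9 UMIs) in the cluster of 426 cells and 0.598 and 1.32 CPM in the following ones. The last pachytene-like cluster held 10 Gfra1 UMIs in 8 of 257 cells (1.88 CPM, 0.903 to 3.46), and the pachytene-like cluster before it 0 UMIs. In the pachytene-like class Gfra1 was at 0.735% of its undifferentiated spermatogonium-like level. The 9 markers of the undifferentiated class stood there at a median of 2.41%, with a range of 0 to 470%. That range is too wide to serve as a background, and the source of these Gfra1 UMIs was not tested. The last pachytene-like cluster was also the deepest of the germ-cell-like ones, at a median of 16580 UMIs. Globin RNA was among the leading genes of the clusters of 562 and 877 cells, and without these the ratio of Leydig-like to differentiating spermatogonium-like Kit was 1.11.

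**Figure D3:**
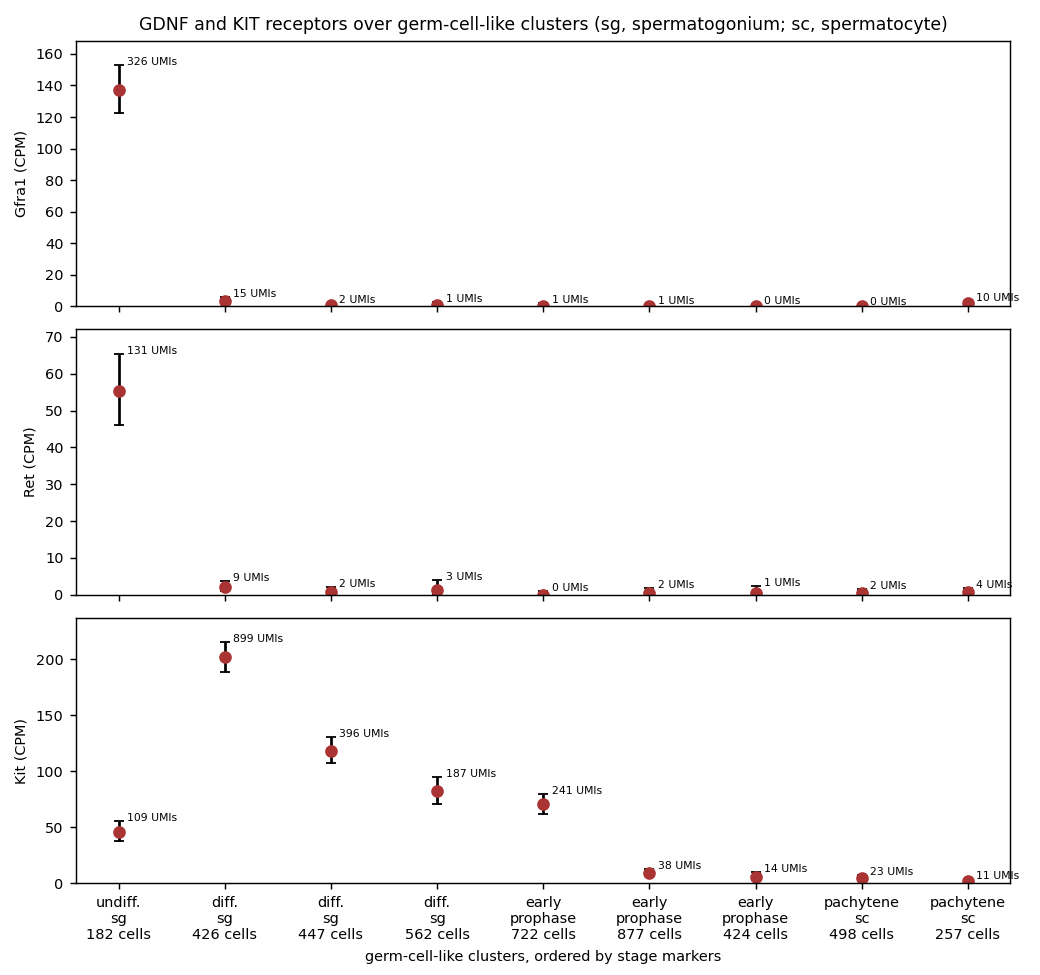
Gfra1, Ret and Kit in CPM (vertical axes, linear, from 0) over the 9 germ-cell-like clusters, in the order given by stage markers, with exact Poisson 95% intervals and UMIs beside the points. Gfra1 and Ret are at 137 and 55.2 CPM in the first cluster and under 4 CPM after it, while Kit rises from 45.9 to 201 CPM and then falls to 2.07 CPM.

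Within the undifferentiated spermatogonium-like class, the share of cells with Ret was larger among those with Gfra1 than among those without, and for Kit no such difference was seen at this depth. Of the 104 cells with a Gfra1 UMI, 53 had Ret (51.0%, 41.0 to 60.9), and of the 78 without, 23 did (29.5%, 19.7 to 40.9), at median depths of 11894 and 11028 UMIs. For Kit the numbers were 30 of 104 cells (28.8%) and 22 of 78 (28.2%, 18.6 to 39.5). Kit was at 42.0 CPM in the first set of cells and 52.3 CPM in the second. With Ret as the reference, Kit was seen in 21 of 76 cells with it (27.6%) and 31 of 106 without (29.2%). Cells of 1 library are not replicates, and these shares carry counting intervals only.

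Cxcr4 and Csf1r both had their highest level in macrophage-like cells, Cxcr4 from few molecules. Cxcr4 had 14.9 CPM (9.25 to 22.8) from 21 UMIs in macrophage-like cells, 7.68 CPM (4.30 to 12.7) from 15 UMIs in Sertoli-like cells and 4.91 CPM (3.52 to 6.66) from 41 UMIs in Leydig-like cells. The ratio of the first to the second was 1.95 (0.957 to 4.06), so the top class was not resolved. Endothelial-like cells had 3.23 CPM and stroma-like cells 1.24 CPM, from 1 UMI each, myoid-like cells 0.912 CPM and pericyte-like cells 0 UMIs. Among germ-cell-like classes Cxcr4 was 2.08 CPM in differentiating and 0.843 CPM in undifferentiated spermatogonium-like cells and 0.203 and 0.202 CPM in the spermatocyte-like ones. The differentiating signal lay mainly in the cluster of 447 cells, with 14 of 21 UMIs (4.18 CPM), 3.73-fold above the cluster of 426 cells (1.27 to 13.2). A Cxcr4 UMI was seen in 4.23% of macrophage-like cells (median 3050 UMIs) and 0.265% of pachytene-like cells (median 9740).

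The macrophage-like class consisted of 2 clusters that differed in Csf1r, in macrophage markers as a whole and in depth, while Cxcr4 rested on few UMIs. In the cluster of 323 cells, led by F13a1 and Folr2, Csf1r was at 638 CPM and all 21 Cxcr4 UMIs were found, at 18.0 CPM. In the cluster of 126 cells, led by the antigen-presentation genes H2-Aa and Cd74 and the cytokine gene Il1b, Csf1r was at 406 CPM and Cxcr4 had 0 UMIs, where 3 counts would be 12.4 CPM. The first cluster was 1.57-fold higher for Csf1r (1.27 to 1.96). For Cxcr4 its ratio to those 3 counts was 1.45, a value that carries no interval. Against the 0 UMIs counted, the lower limit of its ratio was 1.08 from counting error. The 8 macrophage markers together also differed, at 23808 CPM in the cluster of 323 cells and 11130 CPM in that of 126 cells. The 10 Sertoli markers went the other way, at 1164 and 2401.5 CPM, and median depths were 3502 and 1882 UMIs. The part of these differences in the receptor levels was not tested.

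Csf1r had 598 CPM (558 to 639.6) in macrophage-like cells, from 840 UMIs in 346 of 449 cells, and 5.12 CPM in Sertoli-like cells, a 117-fold difference (63.2 to 245). The ratio was 57.4 with doublets kept and 63.1 when the unnamed clusters took their best-scoring name. The remaining classes had 1.37 to 4.30 CPM. Germ-cell-like cells had 2.05 CPM, which is 0.343% of the macrophage-like level, and the macrophage markers stood there at a median of 0.287% of theirs (0.202 to 0.456% over 8 markers). The Csf1r level of germ-cell-like cells thus lay within the range of the markers. A Csf1r UMI was seen in 77.1% of macrophage-like cells at a median of 3050 UMIs and in 1.29% of Leydig-like cells at a median of 8913. Macrophage-like cells had little of the ligand, with 4 Csf1 UMIs.

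Ligand and receptor of each pair were highest in different classes. Gdnf was in myoid-like and Sertoli-like cells and its receptor genes in undifferentiated spermatogonium-like cells. Csf1 was in stroma-like, Leydig-like and myoid-like cells and Csf1r in macrophage-like cells. The exception in part was the KIT pair in Leydig-like cells, which had 217 CPM of Kitl and 184 CPM of Kit. There Kitl was seen in 527 of 662 cells with a Kit UMI (79.6%, 76.3 to 82.6) and in 204 of 265 without (71.4 to 81.9%). The 11 classes share 1 library and differ in depth and in the UMIs they hold of the markers of other classes. Over their levels, the correlation of log2(CPM + 1) between a ligand and its own receptor was 0.30 for Kitl and Kit, 0.15 for Cxcl12 and Cxcr4, -0.04 for Gdnf and Gfra1 and -0.25 for Csf1 and Csf1r. Among the pairs of members it was highest for Gfra1 and Ret (0.91), Kitl and Cxcl12 (0.82) and Cxcl12 and Csf1 (0.81).

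The somatic ligands were also compared cell by cell. In Leydig-like cells Kitl was seen in 79.0% of the 590 cells with a Cxcl12 UMI and 78.6% of the 337 without. In endothelial-like cells the shares were 72.7% of 44 and 42.9% of 28 cells, but the median depths were 4192.5 and 2495 UMIs. In stroma-like cells they were 48.2% of 137 and 33.3% of 144 cells, with median depths of 2680 and 2257 UMIs. The part of depth in these last 2 differences was not tested.

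As a group, 2 of the 9 genes were at least 2-fold above their somatic-like level in germ-cell-like cells, against 38.6% of the 18436 genes with at least 20 UMIs. They were Gfra1 (11.1 against 0.850 CPM, interval of the ratio 7.51 to 24.7) and Ret (4.78 against 1.96 CPM, 2.44-fold, 1.64 to 3.73). All 4 ligands, Cxcr4 and Csf1r, 6 genes, were at least 2-fold lower in germ-cell-like cells, against 25.7% of genes, and Kit lay in between at 59.6 against 111 CPM. The median log2 ratio of the 9 was -2.69, beside 0.49 for all genes tested. Of the 9, 3 stood at least 2-fold higher in 1 class than in every other (Gfra1, Ret and Csf1r), and 29.2% of genes did. Between undifferentiated and differentiating spermatogonium-like cells, 12.9% of genes were at least 2-fold higher in the first and 11.2% at least 2-fold lower. Gfra1, Ret and Cxcl12 (9.69 against 4.37 CPM, 2.22-fold, 1.28 to 3.76) were among the first, and Kit (45.9 against 147 CPM, 3.20-fold lower, 2.63 to 3.93) among the second. Gdnf and Cxcr4 had 1 and 2 UMIs in the undifferentiated class, too few to place them.

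The genes whose class levels were most like those of a member were found by the same correlation over the 11 classes. For Gfra1 they were En1 (0.98), Etv4 and St18, each highest in undifferentiated spermatogonium-like cells at 20.2, 24.4 and 46.3 CPM. For Ret they were Dkk3 (0.98), Mpzl2 and Trib3, which shared its second place in Sertoli-like cells, Dkk3 being at 13.5 and 6.65 CPM. Kit was nearest to Srp72 (0.98), Vmp1 and Sgms2, all highest in Leydig-like cells with differentiating spermatogonium-like cells next. Csf1r was nearest to C1qa (0.99), Rgs18 and Lyz2, of which C1qa and Lyz2 were also used to name the class. Csf1 was nearest to Htra1 (0.99), Maob and Tshz2, and Kitl to Tspan7 (0.97), Mlkl and C430049B03Rik. Gdnf (Srr 0.92, Pde4d, Klhl4), Cxcl12 (Heph 0.93, Il6st, Rps27) and Cxcr4 (Ppp1r3b 0.94, Il4ra, Coa5) had somewhat less similar partners, and for Gdnf and Cxcr4 the class levels rest on few UMIs.

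Other genes of the same pathways were followed in 7 lists. Of the 4 transcription factors that respond to GDNF, 2 were at least 2-fold higher in germ-cell-like cells, 1 at least 2-fold lower and 1 within 2-fold. Lhx1 was at 19.4 CPM in undifferentiated and 0.298 CPM in differentiating spermatogonium-like cells, and Pou3f1 at 128 and 58.3 CPM. Etv5 was at 56.0 CPM in Leydig-like and 50.9 CPM in stroma-like cells, with 34.1 CPM in undifferentiated and 5.95 CPM in differentiating spermatogonium-like cells. Of the other GDNF family ligands and co-receptors, 8 of 10 had enough UMIs, of which 3 were higher in germ-cell-like cells, 2 lower and 3 within 2-fold. The syndecan gene Sdc3 was at 75.4 CPM (61.8 to 91.2) in macrophage-like and 65.6 CPM (55.3 to 77.3) in myoid-like cells, which overlapped. Ncam1, an alternative GDNF co-receptor, was highest in myoid-like cells (55.6 CPM) with 21.9 CPM in undifferentiated spermatogonium-like cells. Gdf15 was highest in macrophage-like cells (27.0 CPM).

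The list for ERK feedback placed Etv4 beside Spry, Spred and Dusp genes, and 1 of its 9 genes was higher in germ-cell-like cells, 5 lower and 3 within 2-fold. That 1 gene was Etv4, so no Spry, Spred or Dusp gene was at least 2-fold higher in germ-cell-like cells. Etv4 was at 24.4 CPM in undifferentiated spermatogonium-like cells and 1.19 CPM in differentiating ones. Spry1 was highest in pericyte-like cells (309.6 CPM) and Dusp6 in macrophage-like cells (187 CPM), with 36.7 and 2.68 CPM of Dusp6 in undifferentiated and differentiating spermatogonium-like cells. Of the adaptors of receptor tyrosine kinases, 6 of 9 were within 2-fold, 1 was higher in germ-cell-like cells and 2 lower. Cbl, a ubiquitin ligase for receptors, was highest in pachytene-like cells (223 CPM). Grb2 was at 213 CPM (189 to 238) in macrophage-like and 190.5 CPM (182 to 199) in differentiating spermatogonium-like cells, which overlapped.

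The relatives of KIT and CSF1R and the other chemokine genes were counted in the same way. Of 9 class III receptor tyrosine kinases and ligands, 0 were at least 2-fold higher in germ-cell-like cells, 6 were lower and 3 within 2-fold. Pdgfa, among the last, had 40.2 CPM over the germ-cell-like classes against 26.8 CPM over the somatic-like ones. Pdgfra was highest in stroma-like cells (555 CPM) and Pdgfrb in pericyte-like cells (404 CPM). Of 10 genes for other chemokines, their receptors and the handling of CXCL12, 9 were at least 2-fold lower in germ-cell-like cells. The 1 within 2-fold was Dpp4, at 0.559 CPM in germ-cell-like against 0.850 CPM in somatic-like cells. Ccl2 and Cx3cr1 were highest in macrophage-like cells, at 795 and 586 CPM. Of 12 other niche factors and receptors, 3 were higher in germ-cell-like cells, 8 lower and 1 within 2-fold. Lifr was highest in Leydig-like cells (404 CPM) and Kdr, the VEGF receptor, in endothelial-like cells (316 CPM). These shares stand beside the 38.6% and 25.7% of all genes given above.

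A large part of the Gdnf, Kitl and Cxcr4 molecules of the library lay in barcodes that the filters left out. Barcodes over the limit of 10% mitochondrial UMIs, 3583 in number, held 52.0% of the Gdnf UMIs (93 of 179), 52.3% of the Kitl UMIs (4193 of 8012) and 42.0% of the Cxcr4 UMIs (94 of 224). For the other 6 genes they held 9.98 to 20.3%. These barcodes had 6817 CPM of the 10 Sertoli markers together, against 1574 CPM in the cells used, and 186 against 854 CPM of the 7 myoid markers. The Leydig markers were at 2412 and 2397 CPM. With up to 20% mitochondrial UMIs allowed, 893 in place of 285 cells were Sertoli-like and held 2451 Kitl UMIs, at a level of 339 CPM that was close to the 340 CPM given above.

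**Figure D4:**
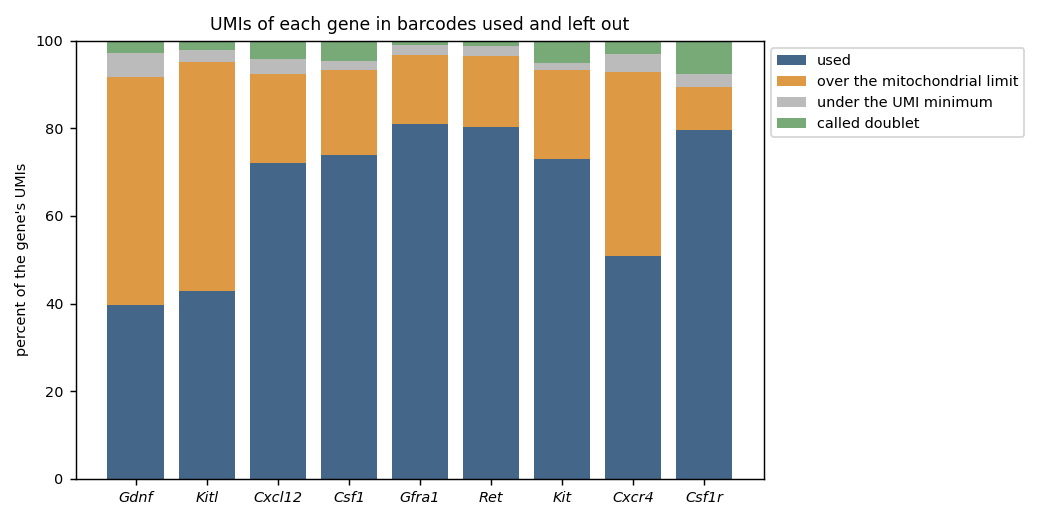
Share of each gene's UMIs (vertical axis, percent of all UMIs of the gene in the library) in the cells used and in barcodes left out for over 10% mitochondrial UMIs, for under 1000 UMIs or as called doublets. The cells used hold 39.7% of Gdnf, 42.8% of Kitl and 50.9% of Cxcr4 UMIs, and 72.1 to 81.1% of those of the other 6 genes.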

How the data were processed

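Testis cells were captured with a droplet 3' kit (Chromium Next GEM 3' v3.1, per the labels' protocols). The deposited values are UMI counts per gene and barcode; the file headers name Cell Ranger 7.1.0 and the submitters' processing notes STAR and the mm10 build. Counts of the remaining libraries were not used, only their barcodes, of which 45 to 81 recurred between 2 libraries.

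Barcodes with 500 genes and 1000 UMIs or more and no more than 10% mitochondrial UMIs were kept (8121), and 235 doublets called by Scrublet (2.89%) removed, leaving 7886 cells with 67.4% of the 72459160 UMIs. With scanpy 1.11.5, 3000 variable genes, 30 components, 15 neighbours and Leiden resolution 1 gave the clusters, with the members, their pathway genes and mitochondrial genes (85) left out. A cluster was named from its mean marker score (at least 1, leading by 0.25 except between neighbouring germ stages or myoid and pericyte, with 3 markers up 2-fold). It also stayed unnamed if its median depth was under the overall median divided by 3 and none of its markers were among its 10 leading genes. This rule left a cluster of 13 cells, which scored 1.10 for Leydig markers, unnamed. After the clusters were seen, the erythroid list was dropped from naming, because globin RNA led 2 germ-cell clusters.

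CPM carry exact Poisson intervals, ratios exact conditional binomial ones and shares Clopper-Pearson ones (scipy 1.17.1), all 95%; a class with 0 UMIs is given the limit of 3 counts. UMIs are counted molecules, but intervals cover counting error only. With 1 library per group no p-value was computed. On simulated counts for the germ against somatic comparison (18436 genes, 200 changed), 95.8% of intervals held the true fold. The simulated counts followed the Poisson model that the intervals assume, so this checks the calculation and not the spread between cells or small classes. In each pathway list the 2 genes highest in any class and the gene with the largest ratio of first to second class were named, and for each member the 3 genes of most similar class levels. Members and lists were chosen with earlier results of these data known. Alternatives covered cell filters, doublets, resolution, genes in the clustering, cell weights and naming.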

Additional observations from a re-analysis of the deposited data

Results flagged for a closer look

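These values lie in cells or barcodes outside the classes compared, and each was above the level of the same gene in all cells used. Gfra1 stood at 210.0 CPM (101 to 386, from 10 UMIs in 5 of 9 cells) in an unnamed cluster led by Rmst, Ecrg4, Pax8 and Slc34a2. It was at 7.82 CPM in all cells used and at 137 CPM in undifferentiated spermatogonium-like cells, a level within that interval. The best score of this cluster was for Sertoli markers (0.50), under the 1 asked for a name. Sox9 was at 378 CPM, Cldn11 at 504, Wt1 at 399 and Pax8 at 441 CPM, while Rhox5 and Mro had 1 UMI each and Fshr 0. Of the 10 Sertoli markers 9 had UMIs there, and of the 10 undifferentiated spermatogonium markers 3. In barcodes over the mitochondrial limit, Gdnf was at 5.02 CPM (4.05 to 6.15) against 1.45, Kitl at 226 CPM (219 to 233) against 70.2, and Cxcr4 at 5.07 CPM (4.10 to 6.21) against 2.33. In barcodes under the UMI minimum, Gdnf was at 3.84 CPM from 10 UMIs and Kitl at 87.2 CPM from 227 UMIs. The 10 Sertoli markers together were at 6817 CPM in the first of these sets and 7146 CPM in the second, against 1574 CPM in the cells used; their part in these levels was not tested. In called doublets, Kit was at 104 CPM against 74.9 and Csf1r at 37.3 CPM against 19.7.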

How the results depend on the processing

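Of 72 alternatives for the 9 genes' ratios, 56 stayed within the counting interval, 13 moved beyond it and 3 reversed, and the cause was not tested. Some of the 56 could not have moved. Leaving out the globin-led clusters could change only the Kit ratio, and naming the unnamed clusters left the Cxcl12 ratio at 1.60. For Csf1, stroma-like over Leydig-like cells gave 0.965 with doublets kept, 0.954 at resolution 2 and 0.952 with the members and pathway genes in the clustering, all reversed, and 1.01 at up to 20% mitochondrial UMIs. With a minimum of 200 genes and 500 UMIs, where the doublet caller had not worked, Gfra1 and Ret were 9.85-fold and 2.80-fold higher in undifferentiated spermatogonium-like than in Sertoli-like cells, and Kit 1.41-fold higher in Leydig-like than in differentiating spermatogonium-like cells. At up to 20% mitochondrial UMIs these were 9.84 for Ret and 1.35 for Kit. Kit was 1.52 with equal weight for each cell and 1.11 without the clusters led by globin genes. For Kitl, endothelial-like over Sertoli-like cells gave 1.49 with doublets kept, 1.62 at resolution 2 and 1.64 with unnamed clusters given their best name. For Csf1r, macrophage-like over Sertoli-like cells gave 57.4 with doublets kept and 63.1 with unnamed clusters named. Gfra1 also moved to 91.5 with equal weight and 23.4 with unnamed clusters named, within its wide interval. Under the 5 alternatives that clustered the cells anew, the class with the highest level changed for Csf1 and for no other of the 9 genes. Counting genes with at least 100 UMIs moved the background shares to 36.0, 24.9, 24.3, 8.69 and 7.83%. The last 2 alternatives, on globin-led and unnamed clusters, were chosen after seeing the data. No paired analysis was possible because each group had 1 library. Cell numbers limit the pericyte-like and endothelial-like values, and 1 library gives no spread between animals.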

Other observations

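The largest unnamed cluster (645 cells, median 1245 UMIs) scored 1.45 for Sertoli and 1.21 for Leydig markers, a lead just under the 0.25 asked for a name, with 7133 and 1823 CPM of the 2 marker lists. It held 86.9 CPM of Kitl (70.1 to 107), 35.9 CPM of Kit, 28.3 CPM of Cxcl12 and 17.0 CPM of Csf1r. Gdnf had 1 UMI there. An unnamed cluster of 120 cells held 49.9 CPM of Kitl (25.8 to 87.2) from 12 UMIs and 0 UMIs of Gdnf, Csf1 and Cxcr4, where 3 counts would be 12.5 CPM.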
